A study of Mus musculus with 24 samples.

Results

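The libraries described here measured the mouse hypothalamus at day 10 after a lesion of the pituitary stalk. They are the 3 libraries labelled PEL_10d and the 3 labelled Sham, neither of which received growth hormone (GH), 6 of the 24 libraries of the series, of which 5 entered the main comparison. PEL is a pituitary stalk electrical lesion, made in male C57BL/6J mice on day 0 with a printed knife placed at the stalk and a cathodic current, and Sham mice were the controls. The Sham libraries carry the label day 0, so no Sham library has the time label of the lesion group. The labels give neither an age nor a pairing of animals, and nothing says whether a library came from 1 mouse or from pooled mice, so p-values measure the spread between these samples. The tissue was a block of hypothalamus that held the supraoptic and paraventricular nuclei, and all groups share that block, the frozen storage and the mRNA library kit. The series also holds the same lesion and Sham operation with GH (PEL_10d-GH and Sham-GH), the lesion at day 3 (PEL_3d), and hippocampus.

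Magnocellular neurons of the supraoptic and paraventricular nuclei send their axons through the pituitary stalk to the posterior pituitary, where vasopressin and oxytocin are released, so a stalk lesion cuts these axons. After injury to the brain, microglia, the resident phagocytes, can lose the profile of resting tissue and take up a damage-associated one rich in lysosomal, lipid-handling and phagocytic genes, while astrocytes enlarge and raise intermediate filaments. Complement proteins tag debris, Fc and Toll-like receptors recognise it, and interferons and antigen presentation report on it to other immune cells. Neurons take much of their cholesterol from astrocytes and oligodendrocytes, and cells that take up cholesterol-rich debris lower their own synthesis and raise its export.

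The library labelled Sham 1 did not look like hypothalamus, and the comparison was therefore made without it and then repeated with it. In CPM, the usual scale of counts relative to the library total, here adjusted by edgeR's TMM factors, *Otp*, a transcription factor of the paraventricular and supraoptic lineage, was 0.209 in Sham 1 and 54.4 and 62.6 in Sham 2 and Sham 3. *Neurod6*, a gene of cortical and hippocampal pyramidal neurons, was 212 in Sham 1 against 0.536 and 0.45, and *Ttr*, the choroid plexus transthyretin gene, was 18100 against 5.83 and 6.55. The 15 hypothalamic transcription factors listed summed to 22.7 CPM in Sham 1, to 304 and 285 in the other Sham libraries and to between 195 and 273 in the PEL_10d libraries. The remaining 5 libraries carried the tissue's defining markers and Sham 1 did not. In counts over the library total, the library labelled HIP-Sham 1, of hippocampus, showed the reverse, with *Otp* at 50.9 CPM and *Neurod6* at 0.921 CPM, where HIP-Sham 2 and HIP-Sham 3, of which the latter is titled as hippocampus and carries a tissue label of hypothalamus, had 0 for *Otp* and 381 and 308 CPM for *Neurod6*. Whether the labels of Sham 1 and HIP-Sham 1 were exchanged was not tested, and every value given with all 3 Sham libraries includes a library with a hippocampal profile. Total counts were 15095267 to 15593644 per Sham library and 15395549 to 16668523 per PEL_10d library.

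Over Sham 2, Sham 3 and the 3 PEL_10d libraries, edgeR's quasi-likelihood test covered 14801 genes. At an adjusted p-value under 0.05, 9.4% were called in either direction, and 1180 genes were higher after PEL, 7.97% of those tested, and 212 were lower, 1.43%. The rises were also larger: their median was 1.0 on the log2 scale with 589 genes over 1, and that of the falls was -0.35 with 9 genes past -1. When Sham 1 was added, 265 genes were higher, 1.81% of 14610 tested, and 4 were lower, 0.0274%. Leaving out Sham 2 or Sham 3 as well, so that 1 Sham library was assumed to vary like the others, left 193 and 285 genes higher and 12 and 19 lower, and leaving out PEL_10d 3 left 119 lower. DESeq2 called 8.71% higher and 2.27% lower. The groups did not overlap for 44.0% of all genes tested, 22.8% with PEL_10d above and 21.3% below. Sham 1, which took no part in this fit, lay below every PEL_10d library for 820 of the 1180 higher genes (69.5%), against 44.3% of all genes tested. For the 212 lower genes it lay above every PEL_10d library in 66 (31.1%), against 36.0% of all genes tested, and below every one in 122 (57.5%). The calls rest on the same PEL_10d values, and Sham 1 has a hippocampal profile, so these positions are no independent support for the calls. Among the lesion libraries, PEL_10d 2 was the lowest for 927 of the 1180 higher genes (78.6%), against 31.2% of all genes tested. The plot of gene lists shows where these calls fell.

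**Figure D1:**
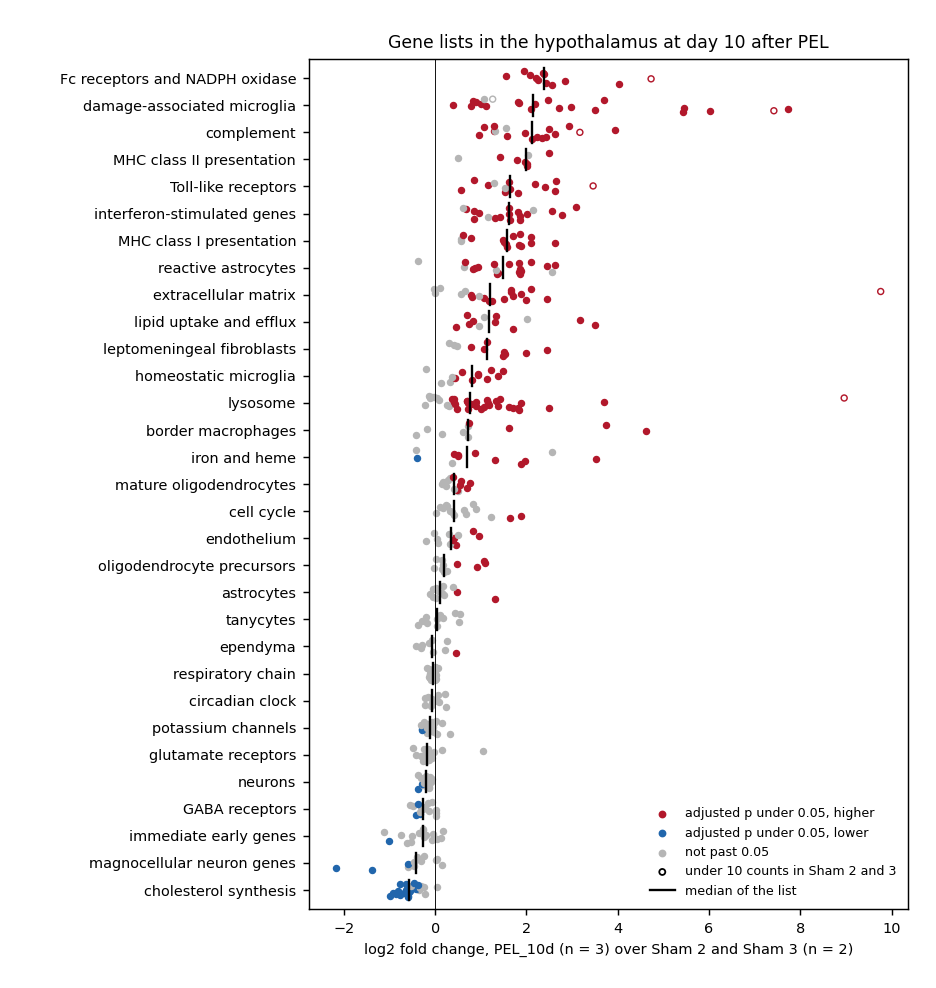
Log2 fold change of PEL_10d (n = 3) over Sham 2 and Sham 3 (n = 2) for the tested members of 31 gene lists, 1 point per gene, with the median of each list as a black line. Red points passed an adjusted p of 0.05 upward and blue points downward, grey points did not pass, and open points had under 10 counts in the Sham libraries, so that their fold is not well set. Immune lists sit to the right, cholesterol synthesis to the left, and the respiratory chain at 0.

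Gene lists of phagocytes had the highest medians, and the damage-associated microglia list was among them. Of 22 damage-associated microglia genes, 20 rose and 0 fell, at a list median of 2.15 on the log2 scale beside -0.01 over all genes. Counts of bulk tissue cannot tell more cells of a type from more RNA per cell, nor fewer cells from less RNA per cell. *Gpnmb*, a membrane glycoprotein of lipid-laden phagocytes on chromosome 6 (GRCm38, 49036546 to 49070929, plus strand), stood at 1.41 and 2.25 CPM in Sham 2 and Sham 3. In PEL_10d 1, 2 and 3 it stood at 477, 107 and 598 CPM, a log2 fold change of 7.73 (SE 0.92, adjusted p = 0.00191, edgeR). All lesion libraries lay far above all Sham libraries, Sham 1 at 7.25 CPM included, and they differed from each other by several fold. *Clec7a*, the β-glucan receptor dectin-1, rose from 1.07 and 0.45 CPM to 51.4, 29.4 and 67.9 CPM (log2 fold change 6.01, SE 0.50, adjusted p = 0.000472, edgeR). *Itgax*, which encodes the integrin CD11c, rose from 0.469 and 0.642 CPM to 26.8, 17.2 and 29.5 CPM (log2 fold change 5.43, SE 0.35, adjusted p = 0.000142, edgeR). PEL_10d 2 was again the lowest of the lesion libraries for both, with no overlap between the groups. *Lgals3*, which encodes a galectin, had a log2 fold change of 5.46 (SE 0.82, adjusted p = 0.00512, edgeR) from 1.14 and 1.35 CPM to 87.3, 16.2 and 63.4 CPM. *Lyz2*, the lysozyme of myeloid cells, went from 20.9 and 18.4 CPM to 708, 177 and 923 CPM (log2 fold change 4.93, SE 0.67, adjusted p = 0.00329, edgeR). *Trem2*, a lipid-sensing receptor, and *Tyrobp*, its signalling adaptor, had log2 fold changes of 2.72 and 2.98. *Cst7*, a cystatin and one of the most specific genes of this state, counted 0 in Sham 2, 1 in Sham 3 and 109 to 115 in the lesion libraries. It passed the count filter through the lesion libraries alone. When Sham 1 was added, 11 of 21 tested passed, and *Lgals3* (adjusted p = 0.0884, edgeR) and *Lpl*, the lipoprotein lipase gene (adjusted p = 0.701, edgeR), did not. *Lpl* was 50.3 CPM in Sham 1 against 4.83 and 4.3 CPM in the other Sham libraries, and 75.7, 26.5 and 53.9 CPM after PEL.

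The homeostatic microglia genes rose less and unevenly. Of 13 tested, 9 rose and 0 fell, at a list median of 0.81 on the log2 scale, and 5 passed with all 3 Sham libraries. *Csf1r*, the receptor for the survival factor of microglia, was 80.0 and 78.2 CPM in the Sham libraries and 193, 184 and 183 CPM after PEL (log2 fold change 1.23, SE 0.06, adjusted p = 7.57e-05, edgeR). *Cx3cr1* (1.13), the fractalkine receptor, and *Fcrls* (1.48) rose by similar log2 fold changes. These lesion libraries lay close together, unlike those of *Gpnmb* and *Lyz2*. *P2ry12*, the purinergic receptor of resting microglia, was 25.3 and 22.6 CPM in the Sham libraries and 25.6, 25.4 and 27.8 CPM after PEL. Its log2 fold change was 0.13 (SE 0.10, adjusted p = 0.475, edgeR), and that of *Tmem119*, a membrane protein of microglia, was 0.33 (SE 0.12, adjusted p = 0.125, edgeR). Among markers of macrophages at the brain's borders, 4 of 10 tested rose and 0 fell, and 2 passed with all 3 Sham libraries. *Siglec1*, the sialic acid receptor CD169, rose from 0.67 and 0.45 CPM to 7.51, 5.68 and 9.65 CPM (log2 fold change 3.74, SE 0.36, adjusted p = 0.000862, edgeR), and *Stab1*, a scavenger receptor, rose by 1.62. *Mrc1* and *Cd163*, scavenger receptors that define resident border macrophages, did not pass, with adjusted p-values of 0.10 and 0.556 from edgeR's test. *Cd163* was 2.01 and 1.8 CPM in the Sham libraries and 2.0, 0.897 and 1.37 CPM after PEL.

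**Figure D2:**
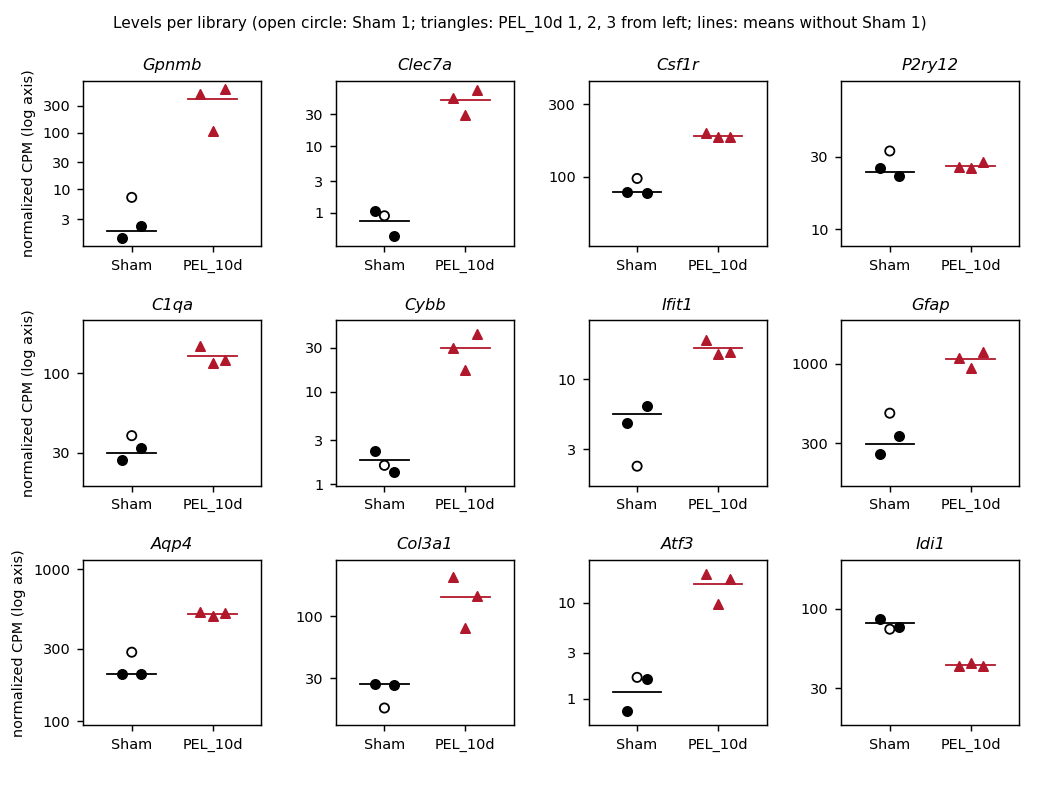
Normalized CPM on log axes for 12 genes in each Sham library (circles, open for Sham 1) and each PEL_10d library (triangles, replicates 1, 2 and 3 from left to right), with lines at the means without Sham 1. The groups are far apart for *Gpnmb* and *Clec7a*, where PEL_10d 2 is the lowest lesion library, and close for *P2ry12*, while *Idi1* is lower after PEL.

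Receptors and effectors of phagocytes rose almost without exception. All 12 tested genes of the Fc receptor and NADPH oxidase list rose, with log2 fold changes from 1.56 to 4.73, and all 12 also passed with the 3 Sham libraries. Of the 12, 1 had under 10 counts in Sham 2 and in Sham 3 and passed the count filter through the lesion libraries alone. *Cybb*, the catalytic subunit of the phagocyte NADPH oxidase, was 2.28 and 1.35 CPM in the Sham libraries and 29.9, 17.1 and 42.3 CPM after PEL (log2 fold change 4.03, SE 0.44, adjusted p = 0.00148, edgeR). Its cytosolic subunit *Ncf1* rose by 1.56, with reads that related sequences can share, and *Fcer1g*, the common Fc receptor γ chain, by 2.57. Reads of the Fc receptor genes themselves can be shared between paralogs and are uncertain. Of 17 complement genes, 15 rose and 0 fell, and 10 passed with all 3 Sham libraries. *C1qa*, which encodes a chain of the initiating C1q, was 27.0 and 32.3 CPM in the Sham libraries and 150, 116 and 123 CPM after PEL (log2 fold change 2.12, SE 0.13, adjusted p = 0.000142, edgeR), and *C1qb* and *C1qc* rose by 2.34 and 2.23. The genes for the central component *C3* and for its fragment's receptor *C3ar1* rose by 2.63 and 3.95. *C4b* had the smallest adjusted p-value of the list, 2.12e-05 by edgeR, at a log2 fold change of 1.96, but its reads can be shared with a near-identical copy. Of 14 genes of Toll-like receptor signalling, 12 rose and 0 fell, and 7 passed with all 3 Sham libraries. *Cd180*, a Toll-like receptor relative, rose by 2.65, *Tlr2* by 1.81 and *Tlr7* by 2.41.

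Antigen presentation and interferon-stimulated genes rose together. Of 15 MHC class I presentation genes, 13 rose and 0 fell, at a list median of 1.57 on the log2 scale, and 10 passed with all 3 Sham libraries. *B2m*, the invariant light chain of class I molecules, was 76.1 and 78.8 CPM in the Sham libraries and 251, 218 and 222 CPM after PEL (log2 fold change 1.57, SE 0.08, adjusted p = 7.57e-05, edgeR). *H2-K1*, *H2-D1* and *H2-T23* rose by 1.87, 1.84 and 1.5, values that are uncertain because reads can be shared within that gene family. Of 8 MHC class II genes, 6 rose and 0 fell, and 3 passed with all 3 Sham libraries. *Cd74*, the class II invariant chain, went from 10.9 and 15.3 CPM to 75.1, 39.6 and 45.1 CPM (log2 fold change 2.01, SE 0.28, adjusted p = 0.0038, edgeR), and *Ctss*, the protease that trims it, from 66.2 and 66.0 CPM to 379, 285 and 460 CPM (log2 fold change 2.50). The groups were well apart for both genes. Of 19 interferon-stimulated genes, 16 rose and 0 fell, with a median of 1.61. *Ifit1*, a protein that binds foreign RNA, was 4.69 and 6.3 CPM in the Sham libraries and 19.8, 15.5 and 16.0 CPM after PEL (log2 fold change 1.63, SE 0.18, adjusted p = 0.00158, edgeR). *Irf7*, a transcription factor that amplifies the response, rose by 1.85. Only 5 of 18 tested passed with all 3 Sham libraries, and *Ifit1* did not (adjusted p = 0.0646, edgeR). In Sham 1 *Ifit1* was 2.23 CPM, below the other Sham libraries.

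Since these genes moved together, their promoters were searched for the core of the interferon-stimulated response element, GAAA followed by any 2 bases and again by GAAA, read on both strands, from 250 bases before to 50 bases after each RefSeq start site (GRCm38.p6). Of the 16 interferon-stimulated genes that rose, 13 had a promoter in the table and 8 of those (61.5%) held the core. It was present in 3.8% of the 11494 tested genes with a promoter and in 3.44% of all 32851 windows. The promoter of *Ifit1*, chr19:34640639-34640888, plus strand, is shown for its 250 bases before the start site, because among the holders its p-value was the smallest. Capitals mark the 2 places where the core was read on the opposite strand, beginning 104 and 85 bases before the start.
Ifit1: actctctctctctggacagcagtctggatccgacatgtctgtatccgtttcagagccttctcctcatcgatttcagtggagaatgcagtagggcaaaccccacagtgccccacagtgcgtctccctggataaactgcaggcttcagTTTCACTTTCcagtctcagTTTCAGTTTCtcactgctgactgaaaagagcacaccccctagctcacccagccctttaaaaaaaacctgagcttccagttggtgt

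Lysosomal hydrolases and membrane proteins rose. Of 38 genes, 28 rose and 0 fell, and 12 passed with all 3 Sham libraries. *Ctsd*, the aspartic protease cathepsin D, was among the most abundant at 440 and 451 CPM in the Sham libraries and 1890, 1080 and 1840 CPM after PEL (log2 fold change 1.84, SE 0.21, adjusted p = 0.00174, edgeR). It was 851 CPM in Sham 1, still below every lesion library, and with Sham 1 in the fit its adjusted p was 0.128. *Ctsh* (1.70) and *Laptm5* (1.87), a lysosomal membrane protein of blood-derived and microglial cells, also rose, and *Lamp1*, a structural membrane protein of all lysosomes, rose by 0.47. Of 6 listed genes of the proton pump, named after their values were seen, only *Atp6v0d2* rose (adjusted p = 0.00529, edgeR). It had under 10 counts in Sham 2 and in Sham 3 and passed the count filter through the lesion libraries alone. Its call is thus no support for a rise of the pump. The genes *Atp6v1a*, *Atp6v0d1*, *Atp6v1h*, *Atp6v1b2* and *Atp6ap1* lay between -0.14 and -0.03 and did not pass. The CLEAR element, the site of the lysosomal regulator TFEB, was searched as TCACGTG on both strands and was found in 5 of 21 lysosome genes that rose and had a promoter (23.8%), against 6.45% of tested genes. It was also in 5 of the 7 lysosome genes with a promoter that did not pass, so its presence did not follow the rise within the list. *Ctsd* is shown as the holder with the smallest p-value (chr7:142387828-142388077, minus strand), with capitals at the 2 places, of which the second reads as the element on both strands and so overlaps itself.
Ctsd: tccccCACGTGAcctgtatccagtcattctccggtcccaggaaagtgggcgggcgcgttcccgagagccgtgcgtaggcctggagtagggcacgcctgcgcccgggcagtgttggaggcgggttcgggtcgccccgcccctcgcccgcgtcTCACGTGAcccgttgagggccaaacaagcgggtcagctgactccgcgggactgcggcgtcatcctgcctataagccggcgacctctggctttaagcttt

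The PU.1 site of myeloid cells, searched as AGGAAGT on both strands, was less set apart from the background. It was held by 3 of the 16 damage-associated microglia genes that rose and had a promoter (18.8%), against 10.0% of tested genes. The *Cst7* promoter (chr2:150570165-150570414, plus strand) is shown for the same reason as the others, with the site in capitals 63 bases before the start.
Cst7: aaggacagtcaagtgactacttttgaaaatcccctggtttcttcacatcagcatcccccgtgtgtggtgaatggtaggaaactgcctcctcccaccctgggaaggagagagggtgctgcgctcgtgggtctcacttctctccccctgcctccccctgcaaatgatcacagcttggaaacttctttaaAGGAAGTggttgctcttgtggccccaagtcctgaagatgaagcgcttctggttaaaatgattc

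Genes of lipid uptake and efflux rose, while those of cholesterol synthesis fell. In the list of lipid uptake and efflux, 9 of 12 tested genes rose and 0 fell, and 2 passed with all 3 Sham libraries. *Abca1*, the transporter that loads cholesterol onto lipoproteins, was 56.1 and 54.0 CPM in the Sham libraries and 174, 153 and 211 CPM after PEL (log2 fold change 1.70, SE 0.13, adjusted p = 0.000271, edgeR). *Abcg1*, its partner, rose by 0.46 and *Npc2*, which moves cholesterol out of lysosomes, by 0.70. Of 24 cholesterol synthesis and uptake genes, 17 fell and 0 rose, at a list median of -0.58 on the log2 scale, where 1.43% of all genes fell. *Idi1*, the isopentenyl isomerase, was 85.2 and 75.2 CPM in the Sham libraries and 41.7, 43.6 and 41.8 CPM after PEL (log2 fold change -0.93, SE 0.08, adjusted p = 0.000571, edgeR). *Fdft1*, squalene synthase, was 132 and 129 CPM against 77.7, 75.8 and 63.6 CPM (log2 fold change -0.85, SE 0.09, adjusted p = 0.00134, edgeR). The groups did not overlap for either gene, and the lesion libraries lay close together. *Hmgcs1*, an early synthase of the pathway, fell by 0.60 on the log2 scale and *Msmo1*, a sterol oxidase, by 0.81. *Srebf2*, the transcription factor of the pathway, fell by 0.46 and *Insig1*, its retention factor and target, by 0.64. Adding Sham 1, *Idi1*, *Msmo1* and *Hmgcs1* still passed and the other 14 did not. Among them, *Fdft1* was 82.9 CPM in Sham 1, nearer to the lesion libraries than to the other Sham libraries.

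**Figure D3:**
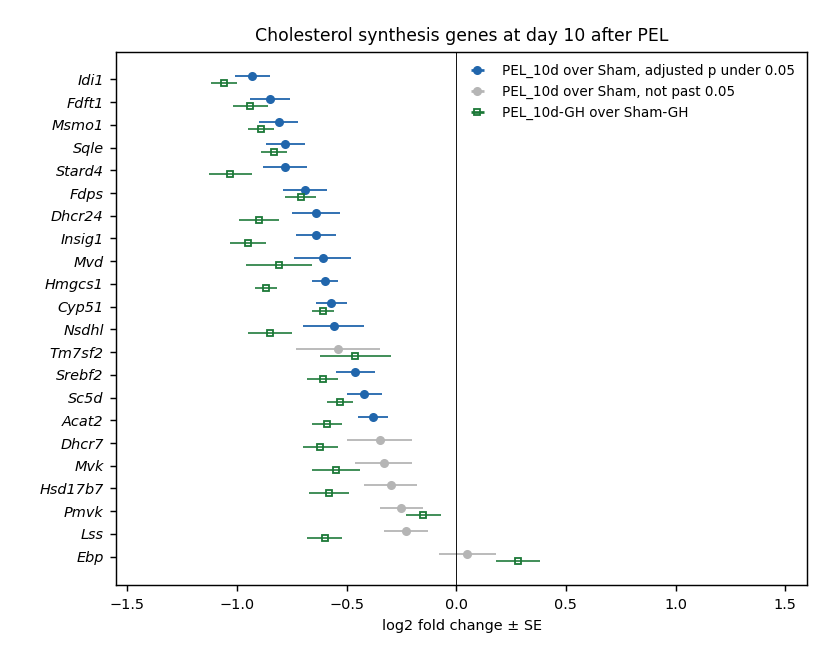
Log2 fold change with its standard error for 22 of the 24 genes of cholesterol synthesis and uptake, in PEL_10d over Sham 2 and Sham 3 (circles, blue at an adjusted p under 0.05 and grey otherwise) and in PEL_10d-GH over Sham-GH (green squares). All genes shown but *Ebp* lie below 0 in both comparisons, with *Idi1* the lowest of those shown.

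The sterol regulatory element, searched as TCACNCCAC on both strands, was held by 1 of the 10 cholesterol genes that fell and had a promoter (10.0%), against 1.4% of tested genes. That gene was *Hmgcs1*, whose promoter is shown in the same form (chr13:119690101-119690350, plus strand), with the element in capitals 137 bases before the start.
Hmgcs1: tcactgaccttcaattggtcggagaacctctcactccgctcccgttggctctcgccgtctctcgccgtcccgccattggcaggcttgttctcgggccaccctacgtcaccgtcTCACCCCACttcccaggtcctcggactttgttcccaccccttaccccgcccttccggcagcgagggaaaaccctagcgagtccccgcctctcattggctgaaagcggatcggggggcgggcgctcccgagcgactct

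Iron and heme genes rose for the most part, with 8 of 12 tested higher and 1 lower, the transferrin receptor gene *Tfrc*, by 0.39. When Sham 1 was included, 1 of 11 tested rose and 0 fell. *Hmox1*, heme oxygenase 1, was 4.56 and 5.53 CPM in the Sham libraries and 23.4, 11.1 and 21.2 CPM after PEL (log2 fold change 1.87, SE 0.31, adjusted p = 0.00794, edgeR). *Slc11a1*, an iron transporter of phagosomes, rose by 3.53 and *Ftl1*, the ferritin light chain, by 1.96. Genes of red blood cells themselves were low, with a sum of 19.4 and 11.4 CPM in the Sham libraries and 16.7, 26.4 and 80.1 CPM after PEL, and none of the 4 tested passed. Reads of the globin genes behind that sum can be shared between paralogs.

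Astrocyte genes separated into reactive and general ones. Of 20 reactive astrocyte genes, 16 rose and 0 fell, and 9 passed with all 3 Sham libraries. *Gfap*, the astrocyte intermediate filament, was 255 and 338 CPM in the Sham libraries and 1090, 936 and 1200 CPM after PEL (log2 fold change 1.86, SE 0.14, adjusted p = 0.000271, edgeR). *Vim*, vimentin, rose from 70.0 and 71.7 CPM to 217, 141 and 190 CPM (log2 fold change 1.36), and *Cd44*, the hyaluronan receptor, from 12 and 10.3 CPM to 43.6, 34.2 and 41.9 CPM (log2 fold change 1.83). The list also holds complement and class I genes that microglia express. Of 12 general astrocyte genes only 2 rose (16.7%, beside 7.97% of all genes), and the median was 0.11. *Aqp4*, the water channel of astrocyte endfeet, was 205 CPM in both Sham libraries and 528, 495 and 514 CPM after PEL (log2 fold change 1.32, SE 0.06, adjusted p = 7.57e-05, edgeR). *Gja1*, a gap junction protein, rose by 0.47. *Aldh1l1*, a folate enzyme found throughout astrocytes, was 60.1 and 63.9 CPM in the Sham libraries and 62.9, 62.8 and 63.2 CPM after PEL, well within their spread. *Slc1a3*, a glutamate transporter named after its values were seen, was 809 and 798 CPM against 750, 795 and 801 CPM and did not pass either.

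Myelin genes were higher after PEL over Sham 2 and Sham 3, and not with Sham 1 added. Of 13 mature oligodendrocyte genes 6 rose, at a list median of 0.41 on the log2 scale, and 0 passed with all 3 Sham libraries. *Mag*, a gene of the inner myelin sheath, was 118 and 153 CPM in the Sham libraries and 234, 216 and 207 CPM after PEL (log2 fold change 0.69, SE 0.11, adjusted p = 0.00619, edgeR). It was 329 CPM in Sham 1, above all lesion libraries, and with that library the log2 fold change was 0.14. *Cldn11*, a tight junction gene of the sheath, rose by 0.76 over Sham 2 and Sham 3, and *Mbp* did not pass (adjusted p = 0.0514, edgeR). Sham 2 was the lower of the Sham libraries for *Mag* and *Cldn11*. *Enpp6*, a gene of newly forming oligodendrocytes, rose from 8.24 and 12.9 CPM to 21.8, 19.4 and 25.6 CPM (log2 fold change 1.06, SE 0.19, adjusted p = 0.0115, edgeR). Of 11 oligodendrocyte precursor genes 4 rose (36.4%) and 0 fell, and 0 passed with all 3 Sham libraries. Beside *Enpp6* these were *Gpr17*, of committed precursors, by 0.47, *C1ql1* by 0.92 and *Bmp4* by 1.1, while the precursor markers *Pdgfra* and *Cspg4* did not pass, with adjusted p-values of 0.177 and 0.23 from edgeR's test. In Sham 1, *Enpp6* was 28.2 CPM, above the lesion libraries. The call of *Bmp4* was also lost without PEL_10d 1 and without PEL_10d 3, and that of *C1ql1* without PEL_10d 3. With all hypothalamic groups in 1 fit, the calls of *Gpr17* and *C1ql1* were lost.

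Genes of fibroblasts and extracellular matrix rose with a wide spread between lesion libraries. Of 11 leptomeningeal fibroblast genes 8 rose and 0 fell, and 1 passed with all 3 Sham libraries. *Col3a1*, a fibrillar collagen, was 26.8 and 26.6 CPM in the Sham libraries and 211, 80.1 and 147 CPM after PEL (log2 fold change 2.44, SE 0.35, adjusted p = 0.00409, edgeR). *Col1a2* and *Dcn*, the matrix proteoglycan decorin, rose by 1.5 and 1.49. For each, PEL_10d 2 was the lowest lesion library and still above both Sham libraries. Of 20 matrix genes 14 rose and 0 fell, and 4 passed with all 3 Sham libraries, which did not include *Fn1* or *Col4a1*. *Fn1*, fibronectin, went from 146 and 151 CPM to 355, 270 and 393 CPM (log2 fold change 1.18, SE 0.14, adjusted p = 0.00187, edgeR), and the basement membrane collagens *Col4a1* and *Col4a2* rose by 1.07 and 0.81. Endothelial genes rose in 5 of 12 cases by at most 0.95 on the log2 scale (*Cdh5*, a junction protein), and *Cldn5*, the tight junction protein of the blood-brain barrier, rose by 0.46. None of the 12 passed with all 3 Sham libraries. Of 9 pericyte and smooth muscle genes 1 rose (11.1%, beside 7.97% of all genes), *Pdgfrb*, by 0.57.

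Genes of blood leukocytes were low throughout. Of 18 listed, 8 passed the count filter and 4 of those rose, so the filter left out most of the list, and 1 passed with all 3 Sham libraries. Of the 4, *Cd3g*, *Plac8* and *Ly6c2* had at most 4 counts in a Sham library and passed the filter through the lesion libraries alone, so their count is no support for a rise of the list. *Ccr2*, the chemokine receptor of blood monocytes, was 1.47 and 1.28 CPM in the Sham libraries and 3.88, 3.71 and 4.37 CPM after PEL (log2 fold change 1.52, SE 0.27, adjusted p = 0.0101, edgeR). *Cd3g*, a chain of the T cell receptor complex, had 0 counts in every Sham library and 12, 14 and 5 counts in the lesion libraries, and *Cd3e*, another chain, was at most 0.598 CPM in any of these 6 libraries. The summed level of the list was 6.77 and 5.91 CPM in Sham 2 and Sham 3, 2.72 CPM in Sham 1, and 20.1, 17.8 and 12.9 CPM after PEL. Among 14 tested chemokine genes 9 rose and 0 fell, and 3 passed with all 3 Sham libraries. The same holds for 4 of these 9, with under 10 counts in Sham 2 and in Sham 3, and for 19 of the 215 rises over all lists. Of the 19, 2 were complement genes. The lists of damage-associated microglia, border macrophages, hippocampus, axon injury, and Fc receptors and NADPH oxidase had 1 each. So did those of Toll-like receptors, lysosome, lipid uptake and efflux, cell cycle, and extracellular matrix. *Cxcl9*, an interferon-induced T cell attractant, went from 0.134 and 0.128 CPM, 2 counts in each, to 1.75, 3.47 and 4.24 CPM (adjusted p = 0.00372, edgeR), and *Cxcl16* from 3.55 and 3.92 CPM to 16.1, 9.27 and 13.8 CPM (log2 fold change 1.80). *Ccl2* did not pass (adjusted p = 0.121, edgeR). Of 10 tested cytokine genes 4 rose, 3 of them also with all 3 Sham libraries, led by *Il1a* (log2 fold change 2.63, SE 0.41, adjusted p = 0.00604, edgeR), *Cntf*, a factor of glia that acts on injured neurons (1.71), and *Tgfb1* (1.55). *Il1b* and *Tnf* were under the count filter, with at most 0.587 and 0.313 CPM in a lesion library.

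Neuronal genes were slightly lower. All 15 general neuron genes lay below 0, between -0.37 and -0.07, and 2 of them fell (13.3%), beside 1.43% of all genes. *Rbfox3*, the nuclear marker NeuN, was 91.3 and 87.4 CPM in the Sham libraries and 69.3, 72.2 and 66.4 CPM after PEL (log2 fold change -0.37, SE 0.07, adjusted p = 0.014, edgeR), and *Tubb3*, neuronal tubulin, fell by 0.28. *Snap25*, a synaptic release protein, was 916 and 847 CPM against 734, 849 and 847 CPM and did not pass. Of 16 GABA receptor genes 3 fell (18.8%), *Gabra3* by 0.34, *Gabra2* by 0.41 and *Gabrq* by 0.37, and of 22 glutamate receptor genes 0 passed in either direction by edgeR and 4 fell by DESeq2, with a median of -0.18. Of 22 potassium channel genes 2 fell (9.09%), *Kcnd2* and *Kcnd3*, each by 0.28. With all 3 Sham libraries none of the genes in these lists passed, and *Tubb3*, *Gabra3* and *Gabrq* changed sign. All the calls named here were also lost without Sham 2 and without Sham 3.

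In the secretory neurons of the hypothalamus, both magnocellular peptide genes fell over Sham 2 and Sham 3. Of 12 genes listed for magnocellular neurons 3 fell (25%), beside 1.43% of all genes, and 0 rose. *Oxt*, the oxytocin precursor, was 48.4 and 120 CPM in the Sham libraries and 21.0, 17.2 and 18.1 CPM after PEL, and *Avp*, the vasopressin precursor, was 81.6 and 129 CPM against 51.3, 31.1 and 39.3 CPM. *Otp*, whose Sham values are above, was 45.4, 38.3 and 33.8 CPM after PEL (log2 fold change -0.59, SE 0.12, adjusted p = 0.0209, edgeR). The Sham libraries differed widely from each other for both peptides and lay above every lesion library. Of 15 hypothalamic transcription factors *Otp* alone fell, and *Nkx2-1*, the regional determinant of the ventral hypothalamus, was 30.8 and 19.1 CPM against 26.2, 25.1 and 18.8 CPM. Of 25 tested peptide and transmitter genes 2 fell (8.0%), *Avp* and *Oxt*, and 1 rose (4.0%), beside 1.43% and 7.97% of all genes. The 1 that rose was *Adcyap1*, the PACAP precursor, from 108 and 98.5 CPM to 127, 133 and 122 CPM (log2 fold change 0.30, SE 0.07, adjusted p = 0.0389, edgeR). Among 12 genes of prohormone processing and secretory granules, *Cpe*, carboxypeptidase E, rose by 0.40, while *Chgb*, the granule protein chromogranin B, and *Cadps2*, a factor of granule release, fell by 0.27 and 0.39. With all 3 Sham libraries, where Sham 1 held almost no *Avp*, *Oxt* or *Otp*, none of these genes passed. The call of *Avp* was also lost without Sham 3 and with all hypothalamic groups in 1 fit (adjusted p = 0.102, edgeR). The calls of *Otp*, *Cpe*, *Chgb*, *Cadps2* and *Adcyap1* were lost without Sham 2 and without Sham 3.

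Genes of axon injury rose in part. *Atf3*, a transcription factor induced in axotomised neurons and in some glia, was 0.737 and 1.61 CPM in the Sham libraries and 20, 9.81 and 17.9 CPM after PEL (log2 fold change 3.74, SE 0.41, adjusted p = 0.00151, edgeR). *Sprr1a*, a small proline-rich protein of regenerating axons, went from 0.134 and 0.321 CPM to 2.88, 3.11 and 3.13 CPM (log2 fold change 3.68, SE 0.43, adjusted p = 0.00189, edgeR). Lesion and Sham libraries were well apart for both, with Sham 1 beside the other Sham libraries. *Jun*, a partner of *Atf3*, was 48.9 and 56.2 CPM against 59.6, 57.8 and 67.7 CPM and did not pass (adjusted p = 0.197, edgeR). In all, 3 of the 11 tested genes rose (27.3%, beside 7.97% of all genes), *Cdkn1a* by 0.50 among them, and 0 fell. DESeq2 called 2 higher and 1 lower, and the call of *Cdkn1a* was lost with it (adjusted p = 0.06), with the replicate block and without any 1 of the 5 libraries. *Atf3* and *Sprr1a* also passed with all 3 Sham libraries. Of 16 immediate early genes, *Fosb* fell by 1.02 and the others did not pass, where DESeq2 called 3 lower. The call of *Fosb* was lost without PEL_10d 1, PEL_10d 2, Sham 2 or Sham 3, with Sham 1 added and with the replicate block. *Fos* was 36.2 and 43.2 CPM in the Sham libraries and 19.0, 18.5 and 40.8 CPM after PEL, so the groups overlapped.

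Markers of neighbouring tissue were checked next. None of the 9 tested choroid plexus genes, the 11 tanycyte genes, the 8 striatal genes or the 3 tested anterior pituitary genes passed. Of 9 ependymal genes 1 did (11.1%, beside 7.97% of all genes), *Foxj1*, with a log2 fold change of 0.45, and -0.31 with Sham 1 added. Its call was also lost with the replicate block, without PEL_10d 1, PEL_10d 2 or PEL_10d 3, and with all hypothalamic groups in 1 fit. *Col23a1*, a tanycyte gene, was 71.7 and 54.2 CPM in the Sham libraries and 72, 55.7 and 18.5 CPM after PEL, which set PEL_10d 3 apart. *Cga*, the glycoprotein hormone α chain of the pituitary, was 13.7 and 11.4 CPM against 21.3, 5.68 and 2.61 CPM. *Prkcd*, a kinase abundant in thalamic relay neurons, rose from 11.9 and 11 CPM to 25.3, 21.6 and 30.1 CPM (log2 fold change 1.16), and *Plekhg1* by 0.41. These were 2 of the 7 tested thalamic genes, beside 7.97% of all genes, and 0 passed with all 3 Sham libraries, where the sign of *Prkcd* turned (-0.90). The 8 listed thalamic genes summed to 90.4 and 109 CPM against 133, 111 and 140 CPM. *Neurod6* rose from 0.536 and 0.45 CPM to 1.13, 2.09 and 2.28 CPM (adjusted p = 0.0426, edgeR), while the 9 tested hippocampal genes summed to 201 and 190 CPM against 201, 199 and 156 CPM. The part that the dissected block had in any result above was not tested.

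Energy, clock and hormone axes were mostly level. Of 25 respiratory chain genes 0 passed, with a median of -0.04 and values from -0.17 to 0.07, and of 11 circadian clock genes 0 passed, with a median of -0.08. By edgeR's test at the unadjusted level, for comparison, 2280 of all genes were higher and 1351 lower at a p-value under 0.05. In the growth hormone and IGF axis 3 of 12 genes rose, *Igf1* from 6.84 and 5.78 CPM to 40.2, 18 and 28.8 CPM (log2 fold change 2.19, SE 0.32, adjusted p = 0.00419, edgeR), and the binding proteins *Igfbp5* and *Igfbp2* by 0.64 and 1.03. Only 1 of the 12 passed with all 3 Sham libraries, where *Igfbp5* was lost (adjusted p = 0.0701, edgeR) and *Igfbp2* turned sign (-0.78). *Ghr*, the growth hormone receptor, was 30.2 and 26.5 CPM against 32.4, 27.4 and 23.2 CPM. Of 11 glucocorticoid response genes 1 rose (9.09%, beside 7.97% of all genes), the metallothionein *Mt2*, by 0.41, with reads that a paralog can share. *Fkbp5*, a common reporter of glucocorticoid action, was 41.6 and 39.4 CPM against 37.4, 35.6 and 34.4 CPM without passing.

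Some of the pathway terms listed with each gene in the deposited table were counted as wider lists. They were chosen by name from general knowledge of brain injury, so the order below holds among the chosen terms only. Complement and coagulation cascades led, with 30 of 48 tested genes higher (62.5%) and 0 lower. Osteoclast differentiation, a term that shares much of its content with myeloid signalling, followed with 44 of 109 higher (40.4%), then phagosome with 51 of 131 (38.9%), antigen processing and presentation with 21 of 57 (36.8%), and ECM-receptor interaction and Toll-like receptor signaling with 29 of 79 each (36.7%). With Sham 1 added, the higher genes numbered 14 for complement and coagulation, 20 for osteoclast differentiation, 27 for phagosome, 13 for antigen processing, 3 for ECM-receptor interaction and 8 for Toll-like receptor signaling. Steroid biosynthesis had the largest share of falls among the terms counted, 7 of 16 (43.8%), with 2 higher, and 1 fell and 0 rose when Sham 1 was added. At the other end, 9 of 139 genes of oxytocin signaling were higher (6.47%) and 2 lower (1.44%), close to the 7.97% and 1.43% of all genes. Ribosome had 6 of 129 higher (4.65%), oxidative phosphorylation 3 of 125 (2.4%) and DNA replication 0 of 36.

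Day 10 was then set beside day 3 without any Sham library, since PEL_3d and PEL_10d libraries are of the same tissue. In that comparison 938 genes were higher at day 10, 6.33% of 14807 tested, and 1804 were lower, 12.2%. The total in both directions was 2742, and separate fits called 1478 genes without PEL_10d 2, 1629 without PEL_3d 1 and 1333 without PEL_3d 3. All 15 tested cell cycle genes were lower at day 10, at a list median of -3.75 on the log2 scale. *Mki67*, a marker of dividing cells, had a mean of 86.6 CPM at day 3 and stood at 3.69, 3.11 and 4.89 CPM at day 10, against 1.41 and 1.09 CPM in Sham 2 and Sham 3. It was thus lower than at day 3 (log2 fold change -4.46, SE 0.17, adjusted p = 8.57e-07, edgeR). Over Sham 2 and Sham 3 it was higher (log2 fold change 1.63, adjusted p = 0.0158, edgeR), a call lost without Sham 2 (adjusted p = 0.111, edgeR), without Sham 3 (adjusted p = 0.141, edgeR) and with Sham 1 (adjusted p = 0.741, edgeR), which at 4.67 CPM lay above PEL_10d 1 and PEL_10d 2. Of the 15 tested cell cycle genes, 2 rose over Sham 2 and Sham 3, *Mki67* and *Cdk1*, and 0 with all 3 Sham libraries. For *Cdk1*, neither Sham library of that fit reached 10 counts (Sham 2: 7, Sham 3: 6). Only the lesion libraries carried *Cdk1* past the filter, so its call is no support for a rise of the list. The *Cdk1* call was also lost with the replicate block and when PEL_10d 1, Sham 2 or Sham 3 was left out. All 13 homeostatic microglia genes were lower at day 10 than at day 3, *P2ry12* by 1.07 on the log2 scale and *Tmem119* by 1.39. Of 22 damage-associated genes 13 were lower and 0 higher, and these did not include *Gpnmb* (-0.11, adjusted p = 0.902), *Clec7a* (0.26, adjusted p = 0.528) or *Itgax* (0.69, adjusted p = 0.143), all from edgeR's test. *Hmox1* was lower by 3.01, from a mean of 151 CPM at day 3. None of the 15 MHC class I genes and none of the 19 interferon-stimulated genes differed between the days at an adjusted p under 0.05.

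A smaller group was higher at day 10 than at day 3. Of 13 mature oligodendrocyte genes 11 were higher and 0 lower, at a list median of 0.44 on the log2 scale, so the myelin genes also differed in a comparison that uses no Sham library. *Enpp6* had a mean of 9.59 CPM at day 3 and was higher at day 10 by 1.23 (adjusted p = 0.00243, edgeR). *Cxcl9* had a mean of 0.0624 CPM at day 3, a level near 0. *Avp* had a mean of 15.7 CPM at day 3 and was higher at day 10 by 1.38 (SE 0.19, adjusted p = 0.00113, edgeR), although both days lay below Sham 2 and Sham 3. *Oxt*, with a mean of 31.5 CPM at day 3, did not differ between the days at this threshold (log2 fold change -0.73, adjusted p = 0.105, edgeR). Of 22 potassium channel genes 11 were higher at day 10 and 0 lower, while 11 of the 24 cholesterol genes were lower still at day 10. The comparison with Sham and the comparison with day 3 share the PEL_10d libraries.

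**Figure D4:**
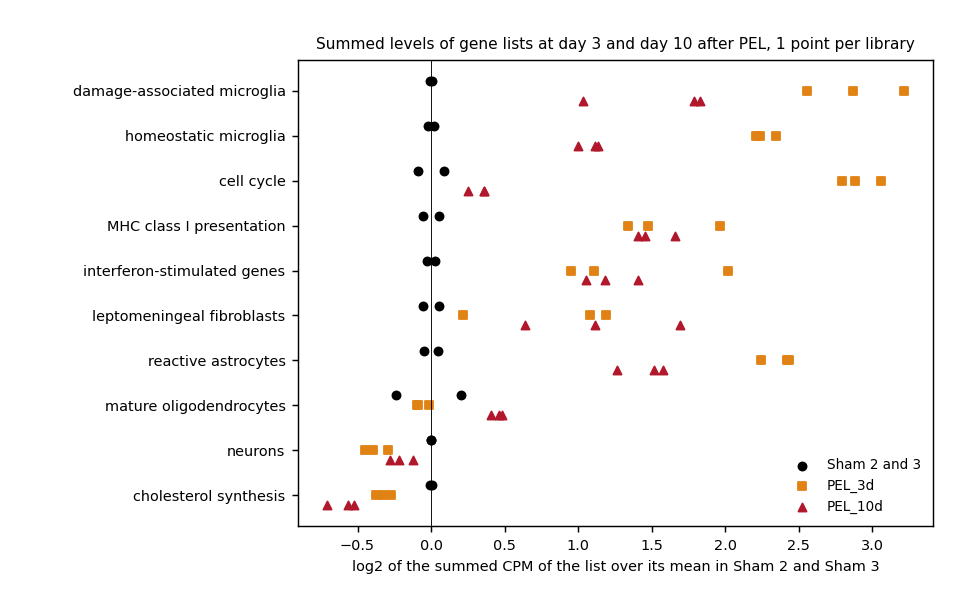
Log2 of the summed CPM of 10 gene lists over the mean of Sham 2 and Sham 3, 1 point per library, for Sham 2 and Sham 3 (black circles), PEL_3d (orange squares) and PEL_10d (red triangles). Cell cycle genes stand high at day 3 and near Sham at day 10, both microglial lists fall part of the way, MHC class I and interferon-stimulated genes overlap between the days, myelin genes lie above both Sham libraries at day 10, and cholesterol genes are below Sham at both days and lower at day 10. Abundant members dominate each sum.

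The same lesion and day in mice given GH used other libraries, 3 of PEL_10d-GH and 3 of Sham-GH, and thus shared none with the comparison above. In it 2598 genes were higher, 17.7% of 14686 tested, and 1947 were lower, 13.3%. Of the 1180 genes higher without GH, 1168 were tested there and 1101 of those (94.3%) were also called higher, which is 42.4% of the higher genes with GH. Of the 212 genes lower without GH, 211 were tested and 123 (58.3%) were called lower, which is 6.32% of the lower genes with GH. Only 2 genes of each list were called in the opposite direction. With GH, 22 of 24 cholesterol genes fell, 13 of 13 myelin genes rose, 12 of 15 neuron genes fell, 15 of 16 GABA receptor genes fell and 14 of 22 glutamate receptor genes fell. That comparison had 3 libraries in each group and the one without GH had 3 against 2, so more calls do not show a larger effect. A test of the difference of the lesion effect with and without GH called 0 of 15116 genes by edgeR, with 690 and 676 at an unadjusted p-value under 0.05 in either direction, and DESeq2 called 96. Without PEL_10d 1 edgeR called 48.

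None of the single genes given here passed the test of the difference. *Oxt* had a log2 fold change of -2.17 without GH (adjusted p = 0.00396, edgeR) and of -0.59 with GH (adjusted p = 0.0547, edgeR). *Avp* had one of -1.38 without GH (adjusted p = 0.00604, edgeR) and of -0.32 with GH (adjusted p = 0.107, edgeR). *P2ry12* rose with GH, by 0.69 (adjusted p = 0.00265, edgeR), and *Tmem119* by 0.91 (adjusted p = 0.000194, edgeR), where neither passed without GH. *Gpnmb*, *Clec7a* and *Itgax* rose with GH by 7.90, 6.10 and 6.52, *Gfap* by 2.32, *Abca1* by 1.65 and *Atf3* by 3.49. *Idi1* fell with GH by 1.06.

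**Figure D5:**
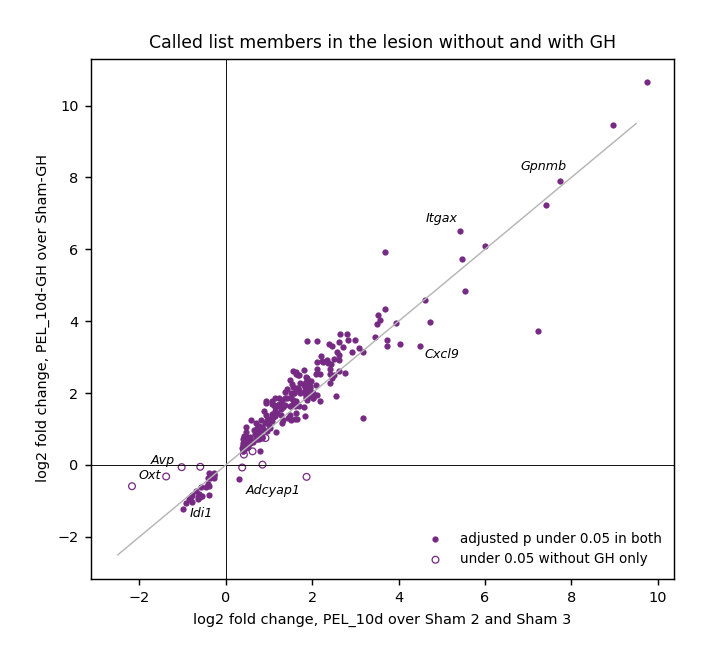
Log2 fold change of the lesion at day 10 without GH (x axis) and with GH (y axis) for 244 list members called without GH, with a grey line where both are equal. Filled points (233) were also called with GH and open points were not. Of the 244 points, 241 have the same sign on both axes, and *Oxt* and *Avp* lie nearer to 0 with GH.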

How the data were processed

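RNA was sequenced from hypothalamus of Sham and PEL mice. The authors aligned reads with Hisat2 and counted them with featureCounts, and the deposited table gives estimated counts per gene, of which 8.22% were not whole by a step not given in the sources used here. The deposited FPKM values were not tested. Counts were rounded.

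Genes were filtered with filterByExpr (minimum count 10), scaled by TMM and tested with edgeR's quasi-likelihood test (version 4.0.16, R 4.3.3) at a Benjamini-Hochberg adjusted p under 0.05. Sham 1 was left out of the main comparison, and DESeq2 (1.42.0) was the alternative tool. Counts were also simulated for PEL_10d against Sham, with 14677 genes tested and 100 genes changed at each size. Of genes changed by a log2 fold change of 1, 93% were recovered, and 100% of those changed by 2, with 3 false calls. Every simulated gene had the same spread between libraries, unlike the real counts, so these shares do not measure recovery in the real data. Standard errors were taken from the log2 fold change and its F statistic. Members and gene lists were chosen with earlier results of these data known.

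Genes were named by rule: the 10 largest rises and falls, up to 4 called members of each list by smallest p, the first 2 members of each list, and, in lists with no call, the 2 most abundant. *Trem2*, *Tyrobp*, *C3*, *Atp6v0d2* and the other proton pump genes, *Srebf2*, *Insig1*, *Ebp*, *Tfrc* and *Slc1a3* fall outside it and were chosen after their values were seen. Replicate numbers were not used to pair the samples in the main fits. Some genes of the lists are counted but not reported by name here. Sequences are from RefSeq (GRCm38.p6).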

Additional observations from a re-analysis of the deposited data

Results flagged for a closer look

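*Adcyap1*, the PACAP precursor gene, moved in opposite directions in the lesion without and with GH. It was higher by a log2 fold change of 0.30 in PEL_10d over Sham 2 and Sham 3, from 108 and 98.5 CPM to 127, 133 and 122 CPM (adjusted p = 0.0389, edgeR), and the groups did not overlap. With GH it was lower by 0.40, a log2 fold change of -0.40 (adjusted p = 0.00926, edgeR), from 134 to 157 CPM in Sham-GH to 92.6 to 119 CPM in PEL_10d-GH. The difference of the effects was 0.70 (SE 0.13) and did not pass its own test (adjusted p = 0.127, edgeR). The call without GH was lost without PEL_10d 1, PEL_10d 2, Sham 2 or Sham 3, with all 3 Sham libraries, and with all hypothalamic groups in 1 fit (adjusted p from 0.0526 to 0.821 over these, edgeR).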

How the results depend on the processing

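The counts of PEL_10d against Sham rested on the Sham libraries. The 1180 higher and 212 lower genes became 265 and 4 with all 3 Sham libraries, 659 and 41 with DESeq2 on all 3, and 589 and 9 with an absolute log2 fold change over 1 required. DESeq2 without Sham 1 called 336 lower. Leaving out 1 library gave 193 to 1334 higher and 12 to 190 lower genes, the fewest without Sham 2. Members of the lists that were called numbered 246, 97 with all 3 Sham libraries, and 87 to 255 when 1 library was left out, with 87 and 110 without Sham 2 and Sham 3. PEL_10d against PEL_3d called 2742 genes, and 1333 to 2799 when 1 library was left out. The difference with and without GH called 0 genes, 96 by DESeq2, 12 without the filter, and 0 to 48 without 1 library. The cause was not tested.

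Whether the replicate numbers pair the samples was not settled, and the main fits used no pairing. Deviations of same-numbered libraries correlated at 0.043 and -0.037 for Sham and PEL_10d. With only Sham 2 and Sham 3, their deviations mirror each other, so these values cannot show whether samples were paired. The correlations were -0.006, 0.046 and -0.056 for Sham-GH and PEL_10d-GH. For PEL_3d and PEL_10d they were 0.087, 0.348 and 0.055. The 0.348, of replicate 2, was the highest of that comparison, while PEL_3d 3 correlated best with PEL_10d 1 (0.255). PEL_10d against PEL_3d called 3367 genes with the block. With it, PEL_10d against Sham had 1250 genes higher and 379 lower. With all 3 Sham libraries and the block 0 were called in either direction by edgeR, with 1098 and 188 at an unadjusted p under 0.05.

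Of 109 calls named in the text, 61 were lost without Sham 2 and 56 without Sham 3. With all 3 Sham libraries, 8 genes called in the text changed sign in edgeR. *P2ry12*, *Ttr*, *Mbp*, *Slc1a3*, *Nkx2-1*, *Col23a1*, *Cga* and *Ghr*, which had not passed, also changed sign, and *Ebp* was at 0.00. In the order edgeR, edgeR with the replicate block and DESeq2, the log2 fold changes were -0.31, -0.08 and -0.35 for *Foxj1*, 0.14, 0.49 and 0.12 for *Gabra3*, 0.21, 1.03 and 0.19 for *Gabrq*, -0.78, -0.01 and -0.82 for *Igfbp2*, -5.26, -0.87 and -5.31 for *Neurod6*, -0.03, -0.01 and -0.06 for *P2ry12*, and 0.05, 0.16 and 0.02 for *Tubb3*. *Otp* was at 0.00 in edgeR and 0.75 with the block. *Prkcd* was at -0.90 in edgeR and -0.94 in DESeq2. *Cldn11* was at -0.03 in DESeq2, and *Cadps2* at 0.00 with the block.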
